A study of Homo sapiens with 9 samples.

Results

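The RNA of DMKN and CREB3L1, which nearly disappeared in SKOV3 cells expressing Tyr19Phe CDK9, was examined together with CREB3 and CREB3L2, the nearest relatives of CREB3L1 with a well-detected RNA. The 4 genes were chosen by symbol from the 58735 genes of the deposited count table, and DMKN and CREB3L1 were chosen because their counts were low in the Tyr19Phe CDK9 libraries. All 4 were among the 16350 genes that passed the filter on low counts. For these genes the levels in Tyr19Phe CDK9 cells are therefore given as a description, without a test. The effect of the ALK inhibitor was tested, although the WT CDK9 libraries that the choice used also served as its control.

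SKOV3 is an established human ovarian cancer cell line. The study asked how a kinase, ALK, acts through phosphorylation of CDK9, the kinase that releases paused RNA polymerase II, at Tyr19. Total RNA was extracted, and 3 groups of 3 libraries were sequenced. The groups were SKOV3 cells expressing WT CDK9, the same kind of cells treated for 24 h by an ALK inhibitor, and cells expressing Tyr19Phe CDK9, in which the tyrosine is replaced by a phenylalanine that cannot be phosphorylated. The inhibitor and its dose for this experiment are not named in the sources used here. For other experiments of the study, cell lines stably re-expressing CDK9 after shRNA depletion of the endogenous gene are described, but whether the sequenced cells carried that depletion, and whether each line was a clone or a pool, is not given. WT and Tyr19Phe CDK9 were expressed in different lines, so the mutation and the line cannot be told apart. The labels do not say that the libraries of a group came from separate cultures, and p-values then measure only the spread between these libraries, which may be technical.

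DMKN encodes dermokine, a protein secreted by the upper layers of stratified epithelia, and lies next to SBSN and KRTDAP, which encode other secreted proteins of the differentiating epidermis. CREB3L1, also called OASIS, CREB3L2 and CREB3 encode basic leucine zipper transcription factors that are held in the membrane of the endoplasmic reticulum. On stress or a change in membrane lipids they move to the Golgi, where the site-1 and site-2 proteases (MBTPS1 and MBTPS2) cut them and free the part that enters the nucleus. CREB3L1 is best known for activating the collagen gene COL1A1 in bone, and CREB3L2 for activating SEC23A, a coat gene of export vesicles, in cartilage.

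The promoters are shown as a description of start regions of the low genes and of CREB3L2, a relative whose RNA changed far less. The start region of CREB3 and an internal one of CREB3L2 are described below but not shown. The sequences were taken from RefSeq (GRCh38.p14) and cover 250 bases before and 50 after a transcription start, read 5′ to 3′ on the strand of the gene. Capitals mark matches on either strand to any of 6 short motifs. TGACG is the core of the cAMP response element, and CCACG is the core of the stress element bound by this family. GGGCGG is known as the GC box and CCAAT as the box of that name. TATAAA is the TATA box, whereas CACGTG is an E-box.
DMKN, first start, chr19:35513600-35513899, minus strand: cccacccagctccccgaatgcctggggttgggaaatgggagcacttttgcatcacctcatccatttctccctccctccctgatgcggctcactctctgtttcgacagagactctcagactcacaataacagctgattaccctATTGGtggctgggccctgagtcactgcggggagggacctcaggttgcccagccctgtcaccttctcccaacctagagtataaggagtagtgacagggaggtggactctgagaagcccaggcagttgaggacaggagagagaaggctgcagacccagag
DMKN, internal start, chr19:35510421-35510720, minus strand: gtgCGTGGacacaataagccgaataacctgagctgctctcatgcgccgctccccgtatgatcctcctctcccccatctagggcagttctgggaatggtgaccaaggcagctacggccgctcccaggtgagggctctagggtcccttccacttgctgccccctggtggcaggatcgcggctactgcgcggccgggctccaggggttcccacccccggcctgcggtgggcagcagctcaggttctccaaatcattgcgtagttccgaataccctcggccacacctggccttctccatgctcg
CREB3L1, chr11:46294909-46295208, plus strand: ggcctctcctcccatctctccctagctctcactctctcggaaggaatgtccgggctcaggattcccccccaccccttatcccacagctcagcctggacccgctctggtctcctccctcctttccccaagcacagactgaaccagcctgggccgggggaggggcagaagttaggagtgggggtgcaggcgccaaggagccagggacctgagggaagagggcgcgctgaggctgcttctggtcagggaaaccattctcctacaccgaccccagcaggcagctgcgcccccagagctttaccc
CREB3L2, chr7:138002037-138002336, minus strand: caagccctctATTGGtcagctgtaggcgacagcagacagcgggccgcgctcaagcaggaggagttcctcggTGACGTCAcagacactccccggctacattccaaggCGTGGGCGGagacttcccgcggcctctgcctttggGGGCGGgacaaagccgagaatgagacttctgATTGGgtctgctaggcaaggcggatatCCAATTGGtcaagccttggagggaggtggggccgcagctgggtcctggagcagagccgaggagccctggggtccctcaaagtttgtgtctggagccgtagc

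The first DMKN start lies 9 bases inside the listed end of the gene. Its window had a GC content of 57.0% and 4 CpG dinucleotides, against medians of 58.7% and 14 over the 35116 promoters of the table, and 24.5% of all promoters held fewer CpG. It held 1 CCAAT match, on the other strand at position -108 from the start, and CCAAT occurred in 34.6% of all promoters. The internal DMKN start shown was richer in CpG, with 18, and held 1 CCACG match at -247. A further internal start, at position 35501911 and not shown, had 9 CpG and 1 GC box at -93. CCACG occurred in 38.1% of all promoters. The CREB3L1 window lies 17498 bases inside the listed start of that gene and held 9 CpG and none of the 6 motifs, which says only that these letters are not in this window. A window for the first CREB3L1 start was not used here. The CREB3L2 window held 17 CpG, 4 CCAAT matches, 1 CCACG match and 2 GC boxes, and its TGACG matches on both strands overlap at -179 and -176, reading together as 1 complete cAMP response element. TGACG occurred in 24.6% and GGGCGG in 45.0% of all promoters, TATAAA in 11.5% and CACGTG in 7.26%.

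The libraries held 18169050 to 29320184 counts on genes, with the highest totals in the 3 Tyr19Phe CDK9 libraries. A floor of 3 counts corresponds to 0.102 to 0.165 CPM, the usual unit of counts scaled to the size of the library, and floors cover counting error only. CPM values were scaled by TMM, which balances the libraries for differences in RNA composition. ALK inhibitor replicate 2 had at least 1 count on fewer genes (19944) than the other inhibitor replicates (21911 and 21915), and so had Tyr19Phe replicate 3 (20635, against 22609 and 22744). These libraries stood apart within their groups on the second and first principal component. The SKOV3 label was checked against markers. ERBB2, KRT8, KRT18 and PAX8 were expressed, whereas MUC16 had 0 to 9, CDH1 1 to 18 and WT1 7 to 52 counts per library. The summed level of 10 ovarian epithelial markers was 3698 to 3825 CPM in WT CDK9 cells, 4628 to 4669 CPM with the inhibitor and 3611 to 3817 CPM in Tyr19Phe CDK9 cells. With Tyr19Phe CDK9, ERBB2, KRT19 and EPCAM were called lower and KRT8 and KRT18 higher. This was 55.6% of the 9 tested markers, against 18% of all tested genes. With the inhibitor ERBB2 and KRT19 were called higher, or 22.2% against 4.55%. The KRT19 call with the inhibitor was lost without WT replicate 1 (adjusted p = 0.18) or inhibitor replicate 3 (adjusted p = 0.191, edgeR). None of the 4 leukocyte, 4 fibroblast and pericyte or 3 endothelial markers passed the filter, and their sums reached at most 19, 39 and 39 counts in a library. The endothelial marker CDH5 had 0 counts in WT, 0 to 1 in inhibitor-treated and 14 to 35 in Tyr19Phe CDK9 libraries. PECAM1 had 0 to 3 in WT libraries and 0 elsewhere, and VWF overlapped between the groups (1 to 17). CDK9 RNA was 48.5 ± 1.03, 45.5 ± 1.76 and 54.9 ± 3.94 CPM (SD, n = 3) in the groups in the same order. Introduced and endogenous CDK9 share these counts, which therefore do not check the labels.

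DMKN RNA was present at a low level in WT CDK9 cells and fell to a few reads per library with Tyr19Phe CDK9. After the ALK inhibitor its mean was 85.8% of the WT mean, a difference that was not called. DMKN (ENSG00000161249) is a protein-coding gene on the minus strand of chromosome 19 (35497220 to 35513658, GRCh38), and no other listed gene overlaps it. In WT CDK9 cells the 3 libraries had 208, 217 and 230 counts, or 10.7, 11.4 and 12.3 CPM. The ALK inhibitor-treated libraries had 206, 164 and 208 counts, or 9.77, 9.0 and 10.7 CPM. The Tyr19Phe CDK9 libraries had 8, 2 and 13 counts, or 0.271, 0.0711 and 0.490 CPM. The WT and inhibitor libraries overlapped, and every Tyr19Phe library was far below both, with replicate 2 under the floor of 3 counts. Of all tested genes, 17.2% had Tyr19Phe libraries wholly below the WT libraries, and DMKN was chosen for its low counts there. The group means were 11.5 ± 0.810, 9.83 ± 0.871 and 0.277 ± 0.209 CPM (SD, n = 3), so that the Tyr19Phe mean was 2.42% of the WT mean and the WT mean was 41.3-fold higher. The log2 fold change with Tyr19Phe CDK9 was -5.36 (standard error 0.30), the lowest of all 16350 tested genes. Against the inhibitor-treated cells it was -5.14 (standard error 0.30). Without Tyr19Phe replicate 3, the library with the most DMKN counts of its group, the log2 fold change against WT was -6.00, and over all 16 alternatives it lay between -6.00 and -4.91.

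With the ALK inhibitor, the log2 fold change of DMKN was -0.22 (standard error 0.20, 95% confidence interval -0.63 to 0.19), and its adjusted p was 0.708 by edgeR's quasi-likelihood test with Benjamini-Hochberg adjustment over all tested genes. The inhibitor mean was 85.8% of the WT mean. Across the whole table, 4.55% of the tested genes passed an adjusted p of 0.05 with the inhibitor (2.73% lower, 1.82% higher), against 18% with Tyr19Phe CDK9 (10.4% lower, 7.61% higher). None of the 4 genes passed it with the inhibitor. Nor did any of the 4 have inhibitor libraries wholly below or above the WT libraries, whereas 10.3% of the tested genes lay wholly below and 9.31% wholly above, 19.6% in all. The interval for DMKN does not reach the value seen with Tyr19Phe CDK9, for which the gene was chosen, and leaves room for a smaller fall. It covers only the spread between these libraries.

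**Figure D1:**
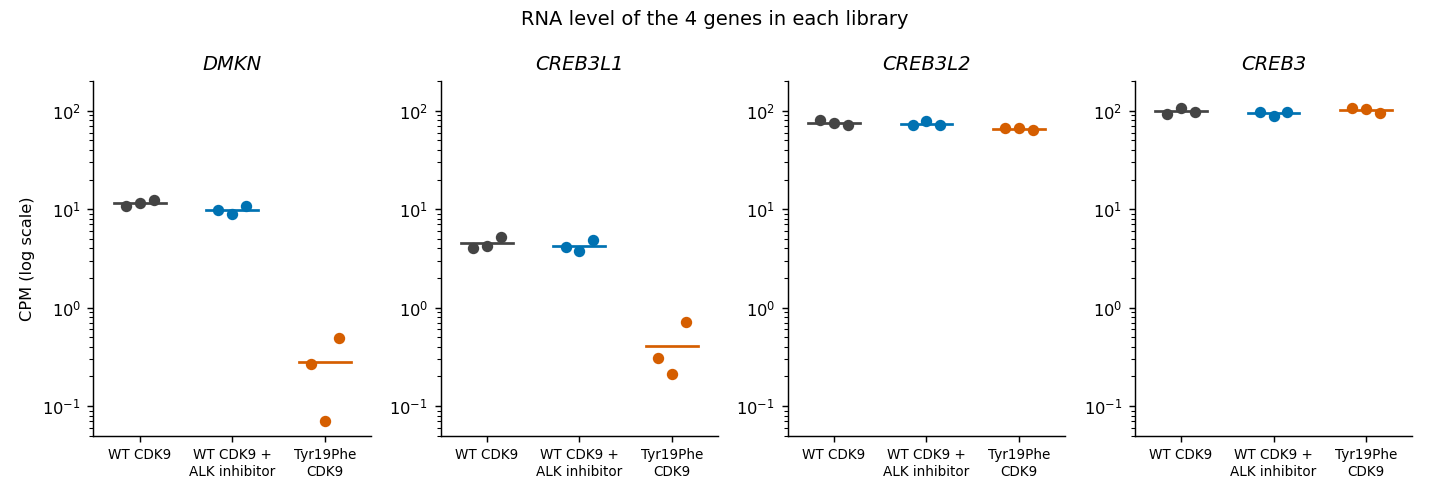
CPM on a log scale (vertical axis) of DMKN, CREB3L1, CREB3L2 and CREB3 in the 3 libraries (points, in replicate order) of each group, with a bar at the group mean. The Tyr19Phe CDK9 libraries lay at 0.0711 to 0.490 CPM for DMKN and 0.213 to 0.716 CPM for CREB3L1, below every other library, whereas all libraries lay within 63.2 to 107 CPM for CREB3L2 and CREB3.

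CREB3L1 RNA followed the same course at a lower level. The gene (ENSG00000157613) is on the plus strand of chromosome 11 (46277661 to 46321422), and no other listed gene overlaps it. The WT CDK9 libraries had 78, 81 and 98 counts, or 4.0, 4.27 and 5.23 CPM. With the inhibitor there were 87, 68 and 95 counts, or 4.12, 3.73 and 4.90 CPM. With Tyr19Phe CDK9 there were 9, 6 and 19 counts, or 0.304, 0.213 and 0.716 CPM. Again the WT and inhibitor libraries overlapped and all Tyr19Phe libraries were below both. The Tyr19Phe libraries were wholly below the WT libraries for 17.2% of all tested genes, and CREB3L1 was chosen for its low counts there. Their mean of 0.411 ± 0.268 CPM was 9.14% of the WT mean of 4.50 ± 0.648 CPM, which was 10.9-fold higher, and the inhibitor mean was 4.25 ± 0.597 CPM (SD, n = 3). The log2 fold change with Tyr19Phe CDK9 was -3.45 (standard error 0.38), rank 10 from the bottom of the tested genes, and -3.37 (standard error 0.38) against the inhibitor-treated cells. The fall against WT was larger without Tyr19Phe replicate 3 (-4.08) and smaller without replicate 1 (-3.27) or 2 (-3.14). Its range over 16 alternatives was -4.08 to -3.14. For both genes Tyr19Phe replicate 3 was the highest and replicate 2 the lowest library of its group.

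With the ALK inhibitor CREB3L1 had a log2 fold change of -0.08 (standard error 0.32, 95% confidence interval -0.73 to 0.57, adjusted p = 0.954, edgeR). At 68 to 98 counts per library in these groups the interval leaves room for a change of moderate size in either direction. Without WT replicate 3 or inhibitor replicate 2 the sign turned, to 0.044 and 0.0074, and no setting called it.

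CREB3L2 and CREB3, the relatives with abundant RNA, changed little in either comparison. CREB3L2 (ENSG00000182158, chromosome 7, 137874979 to 138002067, minus strand) had 80.7, 74.4 and 70.8 CPM in the WT CDK9 libraries, 71.4, 78.5 and 71.3 CPM with the inhibitor and 67.3, 66.2 and 63.2 CPM with Tyr19Phe CDK9. The Tyr19Phe libraries were the lowest of the 9 and did not overlap the WT libraries, and their mean was 87.1% of the WT mean. Of all tested genes, 17.2% had Tyr19Phe libraries wholly below the WT libraries. The log2 fold change was -0.20 (standard error 0.07) with Tyr19Phe CDK9 and -0.03 (standard error 0.07, 95% confidence interval -0.17 to 0.11, adjusted p = 0.909, edgeR) with the inhibitor. The listed gene overlaps AC022173.1 on the other strand, and whether reads were counted by strand is not given.

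CREB3 (ENSG00000107175, chromosome 9, 35732335 to 35737004, plus strand) had 92.9, 107 and 96.3 CPM in the WT CDK9 libraries. It had 96.8, 88.8 and 97.4 CPM with the inhibitor and 106, 104 and 94.7 CPM with Tyr19Phe CDK9, so that the 3 groups overlapped. Its log2 fold change was 0.04 (standard error 0.06) with Tyr19Phe CDK9 and -0.06 (standard error 0.06, 95% confidence interval -0.20 to 0.07, adjusted p = 0.738, edgeR) with the inhibitor. CREB3 overlaps TLN1 and GBA2 on the other strand and the microRNA gene MIR6853 on its own strand. TLN1 and GBA2 were higher with Tyr19Phe CDK9, at log2 fold changes of 0.20 (adjusted p = 8.3e-06) and 0.28 (adjusted p = 9.8e-04, edgeR), and whether their reads entered the CREB3 count was not tested. Of the other family members, CREB3L4 was at 2.43, 2.90 and 3.08 CPM on average in WT, inhibitor-treated and Tyr19Phe CDK9 cells and passed the test in neither comparison. The last, CREB3L3, known for its role in liver, had 0 counts in all 9 libraries.

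Per length, CREB3 was the most abundant of the 4 detected family genes in every group. The scale is CPM divided by the gene length that the table lists, in kb. In WT CDK9 cells CREB3 was at 51.9 ± 3.88, CREB3L2 at 8.57 ± 0.569 and CREB3L1 at 1.11 ± 0.161 CPM per kb (SD, n = 3), without overlap between these genes. CREB3L4 followed at 0.837 ± 0.126 CPM per kb. Its WT libraries lay just below those of CREB3L1, and with the inhibitor the libraries of the 2 genes overlapped. DMKN was at 1.54 ± 0.109 CPM per kb. Among all tested genes, 32.3% had a lower WT level per length than DMKN and 27.4% a lower one than CREB3L1, against 95.5% for CREB3 and 67.5% for CREB3L2. CREB3L1 made up 1.79% of the summed level per length of the 4 family genes in WT CDK9 cells, 1.75% with the inhibitor and 0.164% with Tyr19Phe CDK9. The level of CREB3 per length was 46.5 times that of CREB3L1 in WT CDK9 cells, 47.1 times with the inhibitor and 525 times with Tyr19Phe CDK9. Since the levels are those of RNA from many cells, fewer cells with the RNA and less RNA per cell cannot be told apart.

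**Figure D2:**
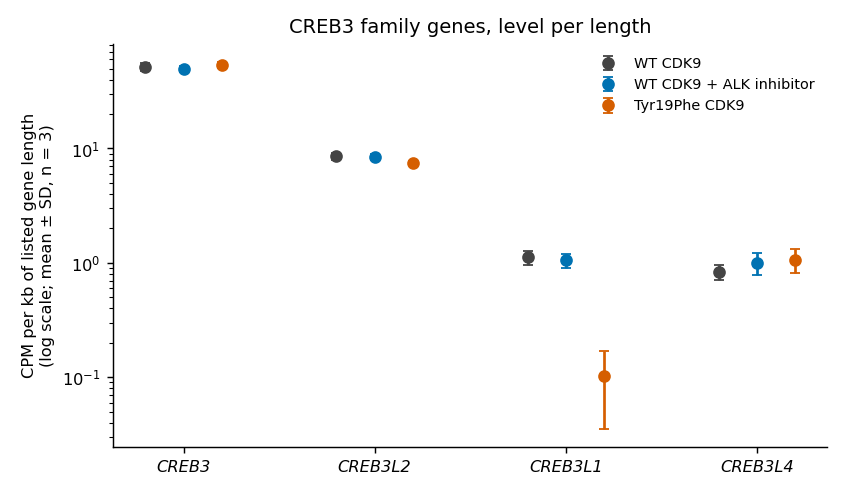
Level per length (CPM per kb of listed gene length, log scale) of the 4 detected CREB3 family genes in the 3 groups, with points at the mean and bars for the SD of 3 libraries. CREB3L1 dropped from 1.11 and 1.05 CPM per kb in WT and inhibitor-treated cells to 0.102 CPM per kb with Tyr19Phe CDK9, while the other 3 genes differed far less between the groups.

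Few tested genes had as large a fall, a rank that for DMKN and CREB3L1 follows in part from their choice by low Tyr19Phe counts. Of 11090 tested genes with a WT mean of at least 5 CPM, a level just above that of CREB3L1 itself, 3 had a log2 fold change with Tyr19Phe CDK9 at or below that of CREB3L1, namely DMKN, CDH13 and BOLA2B, and 10 of all tested genes did so at any level, CREB3L1 included. CDH13, which encodes a cadherin anchored by a lipid, had 848, 765 and 790 counts in WT CDK9 cells, 1048, 761 and 902 after the inhibitor and 111, 97 and 110 in Tyr19Phe CDK9 cells. Its libraries were thus more even within the Tyr19Phe group than those of DMKN and CREB3L1, at 8.21% to 9.87% of the WT mean. The value of BOLA2B rests on WT replicate 3, with 457 counts against 17 and 13 in the other WT libraries, and its near-identical copy BOLA2 makes the count uncertain.

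Over the 9 libraries, the log2 CPM of DMKN and CREB3L1 had a Pearson r of 0.995, which includes the gap between the Tyr19Phe libraries and the rest for which the genes were chosen. The genes most like DMKN among the 14038 genes averaging 1 CPM or more were ACSL1 (r 0.996), HIPK3 (0.990), SGPP2 (0.988), RFC1 (0.988) and QKI (0.987). Among those most like CREB3L1 were ACSL1 (0.989), RFC1 (0.988), RABGAP1 (0.987) and G3BP2 (0.987). The change of the genes named was much smaller than that of DMKN or CREB3L1. Their log2 fold changes with Tyr19Phe CDK9 ran from -0.33 for RABGAP1 to -1.70 for SGPP2, with ACSL1, which activates long-chain fatty acids, at -0.61. The points of each correlation share the libraries and their depth.

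The genes around DMKN were examined next. Of 32 other genes listed within 200 kb, 6 were tested and none passed the test in either comparison, where 18% of all tested genes were called with Tyr19Phe CDK9 and 4.55% with the inhibitor, so that a count of 0 among so few is near the background. RBM42, TMEM147, HAUS5, TMEM147-AS1 and COX6B1 had log2 fold changes with Tyr19Phe CDK9 of 0.17, 0.06, 0.06, -0.01 and -0.07. ETV2, with a WT mean of 1.07 CPM, had -1.02 (standard error 0.66, adjusted p = 0.326, edgeR). The skin genes beside DMKN were not expressed at this depth. SBSN had 0 counts in every library and KRTDAP had 0, 2 and 5 counts in the WT CDK9 libraries and 0 elsewhere. Within 1 Mb, 51 genes were tested, 4 were called lower and 3 higher (10.4% and 7.61% of all tested genes were), and their median log2 fold change was -0.02, against 0.0035 for all tested genes. Within 5 Mb the median of 172 tested genes was 0.0039, with 10 lower and 9 higher.

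The surroundings of CREB3L1 were examined in the same way. Of 15 other genes listed within 200 kb, 5 were tested and none was called in either comparison, again with too few genes to set against the 18% of all tested genes. DGKZ, AMBRA1, AC024293.1, MDK and PHF21A had log2 fold changes with Tyr19Phe CDK9 of 0.03, -0.03, -0.07, -0.15 and -0.21. Within 1 Mb, 27 genes were tested with a median of 0.02, and 1 was called lower and 2 higher, against 10.4% and 7.61% of all tested genes. The gene called lower was CKAP5, for a microtubule-binding protein (-0.16, adjusted p = 0.0054, edgeR). The lowest value was that of LARGE2, a glycosyltransferase gene with a WT mean of 0.594 CPM, at -1.62 (standard error 0.91, adjusted p = 0.242, edgeR), which was not called. Within 5 Mb, 53 were tested with a median of 0.01, and 3 were called in each direction. Around CREB3, 15 genes were tested within 200 kb and 3 were called higher with Tyr19Phe CDK9 (7.61% of all tested genes were), TLN1, GBA2 and RUSC2. Around CREB3L2, 2 were tested, of which DGKI, a lipid kinase gene with a WT mean of 1.22 CPM, was called lower (-2.43, standard error 0.75, adjusted p = 0.0195, edgeR). With so low a WT mean, DGKI passed the filter through the groups where it is higher, which limits this call.

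**Figure D3:**
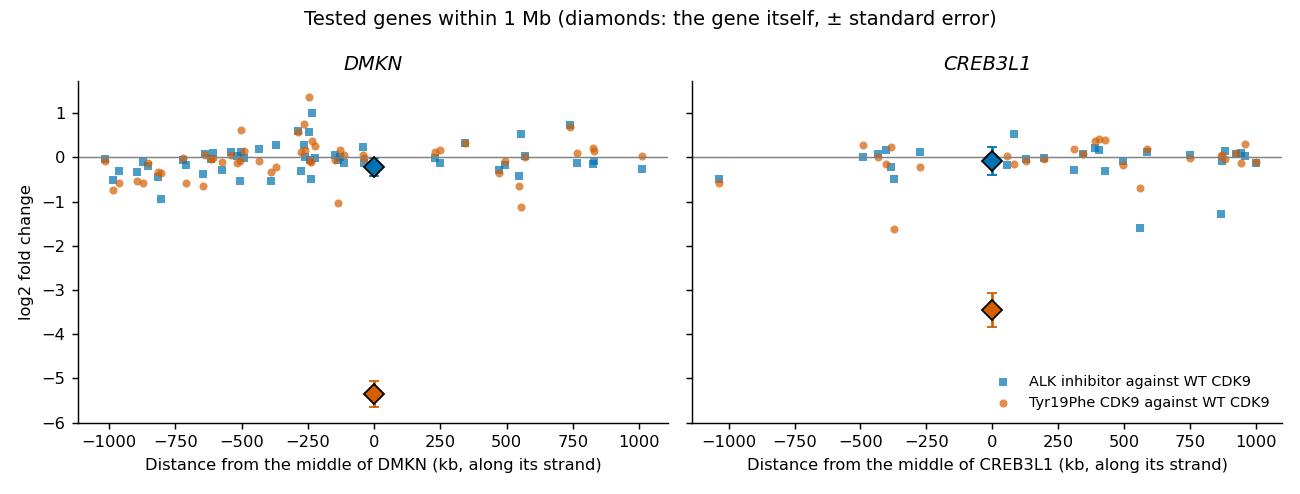
Log2 fold change against WT CDK9 (vertical axis) of the tested genes listed within 1 Mb of DMKN (left) and CREB3L1 (right), by distance in kb between gene middles along the strand of the gene, for the ALK inhibitor (squares) and Tyr19Phe CDK9 (circles). Diamonds with bars for the standard error are the genes themselves, at -5.36 and -3.45 with Tyr19Phe CDK9, below all of their 51 and 27 neighbours.

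The RNA of the machinery that processes the CREB3 family was examined next. The list held 12 genes for relatives processed in the same way (CREB3L3, CREB3L4, ATF6, ATF6B, SREBF1, SREBF2), their escorts and the proteases, and 11 were tested. None passed the test with the inhibitor (median log2 fold change 0.07). With Tyr19Phe CDK9 none was called lower and 2 were called higher (median 0.13), a share of 18.2% that is near the 18% called among all tested genes. SREBF2, which encodes a regulator of cholesterol synthesis, rose by 0.23 on the log2 scale (standard error 0.04, adjusted p = 2.2e-04, edgeR). INSIG1, which retains such factors in the endoplasmic reticulum, rose by 0.21 (adjusted p = 0.0359, edgeR), but it was called in only 4 of 9 fits that left out 1 library and its adjusted p reached 0.109. The call was lost without WT replicate 1 (0.0891), 2 (0.0627) or 3 (0.0998) or Tyr19Phe replicate 1 (0.109) or 2 (0.0889), and without the filter on low counts (0.0622). MBTPS1 and MBTPS2, the proteases, were at 0.01 and -0.07 with Tyr19Phe CDK9 and passed the test in neither comparison.

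Genes of the COPII coat and of export from the endoplasmic reticulum, the pathway of CREB3L2 and SEC23A, included genes called in both directions. All 25 were tested. SEC23A itself had a log2 fold change of -0.03 with Tyr19Phe CDK9 (standard error 0.05, adjusted p = 0.759, edgeR) and 0.03 with the inhibitor. With the inhibitor, BET1, which encodes a vesicle fusion protein, rose by 0.43 on the log2 scale (adjusted p = 0.0388, edgeR) and the other 24 were not called, a share of 4% against 4.55% of all tested genes. The BET1 call was lost without WT replicate 1 (0.168) or 3 (0.131) or inhibitor replicate 1 (0.0722), 2 (0.0870) or 3 (0.133). With Tyr19Phe CDK9, 4 were called lower and 1 higher (median 0.01), which is 20% of the list against 18% of all tested genes. SEC24B (-0.36, adjusted p = 1.6e-04) and SEC31A (-0.24, adjusted p = 6.2e-04) encode coat subunits and kept the call in every fit that left out 1 library. The calls of SEC24D (-0.20, adjusted p = 0.0376), LMAN1 (-0.12, adjusted p = 0.0438), both lower, and of SURF4 (0.15, adjusted p = 0.0177, edgeR), the higher one, were lost in several of these 9 fits. SEC24D lost it without any 1 WT replicate, inhibitor replicate 1 or Tyr19Phe replicate 2 or 3, up to 0.169. LMAN1 lost it without any 1 library other than Tyr19Phe replicate 1, up to 0.180, and SURF4 without WT replicate 1 or 3 or Tyr19Phe replicate 3, up to 0.138. With upper quartile scaling, 2 were lower and 4 higher, and with library size alone 2 were lower and 5 higher. SEC24B, SEC24D and SEC31A lie on chromosome 4, where 209 of 608 tested genes (34.4%) were called lower and 6 higher with Tyr19Phe CDK9, at a median log2 fold change of -0.22. The part of that chromosome-wide shift in these 3 calls was not tested. ACSL1, RFC1 and G3BP2, named above for their likeness, lie on it too. On chromosomes 19 and 11, which carry DMKN and CREB3L1, 6.17% and 8.46% of the tested genes were called lower, against 10.4% of all.

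Collagen genes, which include the best-known target of CREB3L1, split. Of 25 genes for collagens and the enzymes that make them, 23 were tested. COL1A1, for the main chain of type I collagen, had 103, 102 and 107 CPM in the WT CDK9 libraries, 115, 149 and 136 CPM with the inhibitor and 45.1, 38.2 and 30.4 CPM with Tyr19Phe CDK9. The 3 groups did not overlap, with the Tyr19Phe libraries lowest and the inhibitor libraries highest. Among all tested genes, 17.2% had Tyr19Phe libraries wholly below WT and 9.31% had inhibitor libraries wholly above WT. In Tyr19Phe CDK9 cells COL1A1 fell, the log2 fold change being -1.46 (standard error 0.09, adjusted p = 1.04e-13, edgeR). With the inhibitor it rose by 0.35 on the log2 scale (adjusted p = 0.0111, edgeR), a call that was lost without WT replicate 1 (0.0653) or inhibitor replicate 2 (0.147) or 3 (0.0662), and under DESeq2 (0.185). COL1A2, for the partner chain of type I collagen, had 6.05, 7.38 and 6.03 CPM in the WT CDK9 libraries, 9.15, 12.1 and 10.5 CPM with the inhibitor and 6.46, 4.87 and 7.12 CPM with Tyr19Phe CDK9. Its log2 fold change was -0.08 with Tyr19Phe CDK9 (standard error 0.19, adjusted p = 0.844, edgeR).

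With Tyr19Phe CDK9, 4 collagen list genes were lower and 3 higher (median 0.01), which is 30.4% of the tested list genes against 18% of all tested genes. COL12A1 (-0.41, adjusted p = 3.1e-09) and COL6A2 (-0.50, adjusted p = 3.0e-04) were called lower and COL5A1 (0.69, adjusted p = 5.3e-16) and LOXL2 (0.28, adjusted p = 2.6e-06, edgeR) higher in every fit that left out 1 library. COL6A1 (-0.41, adjusted p = 0.0388, edgeR) lost its call without any 1 WT replicate or Tyr19Phe replicate 1 or 2, up to 0.151, and also without the filter (0.0639) and with upper quartile scaling (0.0510) or library size alone (0.0533). CRTAP, for a collagen hydroxylase subunit, was higher by 0.15 (adjusted p = 0.0131, edgeR) and lost its call without WT replicate 1 (0.0630). With the inhibitor none was lower and 4 were higher (median 0.09), or 17.4% of the tested list genes, against 1.82% called higher among all tested genes. Beside COL1A1 these were COL1A2 (0.70, adjusted p = 0.0210), PLOD2 (0.25, adjusted p = 0.0220) and PLOD1 (0.20, adjusted p = 0.0018, edgeR). PLOD1, for a lysyl hydroxylase, was called in all 9 fits that left out 1 library. COL1A2 lost its call without WT replicate 1 (0.105) or 3 (0.0831) or inhibitor replicate 2 (0.128) or 3 (0.0668), and PLOD2 without WT replicate 1 (0.0891) or 2 (0.0908) or inhibitor replicate 2 (0.195).

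Genes of the skin barrier, the program with which DMKN is switched on in epidermis, were largely silent in these cells. Of 41 listed, 12 were tested, and the other 29 had at most 20 counts in any library. With Tyr19Phe CDK9, 4 were called lower and 2 higher (median -0.17), which is 50% of the tested list genes against 18% of all tested genes. KRT5, a keratin of basal epithelial cells, had 158, 151 and 103 counts in the WT CDK9 libraries, 108, 143 and 112 after the inhibitor and 73, 55 and 33 in Tyr19Phe CDK9 cells. It fell with Tyr19Phe CDK9, the log2 fold change being -1.92 (standard error 0.26, adjusted p = 1.4e-06, edgeR), closer to 0 than that of DMKN, and was not called with the inhibitor (-0.20, adjusted p = 0.791). GRHL1, for a transcription factor of surface epithelia, had 36 to 41 counts in WT, 22 to 32 in inhibitor-treated and 8 to 18 in Tyr19Phe CDK9 libraries, and its log2 value changed by -2.15 with Tyr19Phe CDK9 (standard error 0.54, adjusted p = 0.0040, edgeR). At means of 2.01 CPM in WT and 0.448 CPM in Tyr19Phe CDK9 cells, GRHL1 passed the filter through the groups where it is higher. Its call, 1 of the 4 lower, carries that limit, and requiring at least 10 counts in every library removed it. The desmosomal cadherin gene DSC3 (-0.42, adjusted p = 0.0078) and KRT10 (-0.36, adjusted p = 0.0241, edgeR) were the others called lower. DSC3 lost its call without WT replicate 3 (0.0770), and KRT10 without WT replicate 2 (0.196) or 3 (0.118) or Tyr19Phe replicate 1 (0.133) or 3 (0.0723).

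JUP, for plakoglobin, a junction protein, rose by 0.92 on the log2 scale in Tyr19Phe CDK9 (standard error 0.07, adjusted p = 2.4e-12, edgeR) and by 0.31 with the inhibitor (standard error 0.07, adjusted p = 0.0037, edgeR), the latter call being lost without inhibitor replicate 2 (0.0600). EVPL, for envoplakin of the cornified envelope, rose by 1.48 with Tyr19Phe CDK9 (standard error 0.37, adjusted p = 0.0037, edgeR). With the inhibitor JUP was the only one called (median -0.0031), or 8.33% of the tested list genes against 4.55% of all. Of 4 keratinocyte markers, KRT5 was tested, KRT1 had 0 counts in every library and KRT14 and TP63 had at most 20 and 5 counts in a library. Their summed level was 5.93 to 9.22 CPM in WT, 5.12 to 8.23 CPM in inhibitor-treated and 1.85 to 2.87 CPM in Tyr19Phe CDK9 libraries. Most of it was KRT5, at a mean of 7.19 CPM in WT and 1.89 CPM in Tyr19Phe CDK9 cells. KRT14 had 7 to 20 counts in WT and 10 to 16 in Tyr19Phe CDK9 libraries. The part of this sum in the level of DMKN was not tested.

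**Figure D4:**
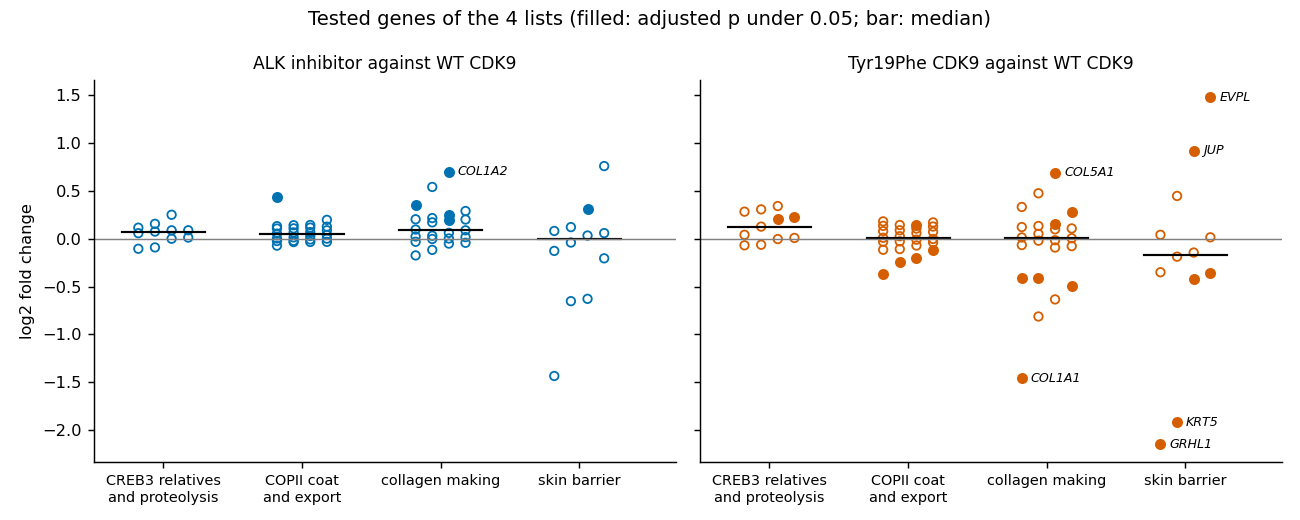
Log2 fold change against WT CDK9 of the tested genes of 4 lists (11, 25, 23 and 12 genes) with the ALK inhibitor (left) and with Tyr19Phe CDK9 (right). Filled points passed an adjusted p of 0.05 and bars are medians, which lay between -0.17 and 0.13, and the lowest value among the genes called with Tyr19Phe CDK9 was that of GRHL1 at -2.15. GRHL1 passed the filter on low counts through its WT and inhibitor libraries.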

How the data were processed

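RNA of 9 libraries of SKOV3 cells was sequenced and mapped to hg38. Per the submitters' processing notes, CASAVA, HISAT2 2.0.5 and featureCounts 1.5.0-p3 were used. The annotation release and the strand setting are not given in the sources used here. The authors deposited raw counts of reads per gene, without normalization, beside identifier, symbol, position and length, and all 9 library columns were used.

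The tests were run with edgeR 4.0.16 under R 4.3.3, and other steps in Python 3.11.15. Genes passed filterByExpr (minimum count 10, minimum total 15), libraries were scaled by TMM, and edgeR's quasi-likelihood fit took all 9 libraries with a mean for each group, and Benjamini-Hochberg adjustment ran over every tested gene, with calls at 0.05. DESeq2 1.42.0, the tool the study ranked genes with, was an alternative. A prior count of 2 was used for log2 CPM. The Tyr19Phe and inhibitor comparisons share the WT libraries. Same-numbered libraries did not deviate together (correlations from -0.012 to 0.026) and were not paired, and no libraries were identical. Correlations of libraries within a group lay between 0.975 and 0.986.

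The members and lists were chosen with earlier results of these data known. Named beside the members are all list genes called with the inhibitor, up to 5 per direction and list called with Tyr19Phe CDK9, the 5 genes most like each of DMKN and CREB3L1, genes of at least 5 CPM in WT that fell as far as CREB3L1, tested genes within 200 kb and markers. An item that this rule selects is not reported here. CREB3 relatives, SEC23A, LARGE2, CKAP5, the neighbours of CREB3 and CREB3L2 and the comparison of chromosomes were chosen after their values were seen. The alternatives were scaling by DESeq2 size factors, upper quartile or plain library size, DESeq2, no filter beyond 1 count, at least 10 counts in every library, a replicate block, a fit of the compared groups only, an adjusted p of 0.01, an unadjusted p of 0.05 and each library left out in turn. On simulated counts, 159 of 200 changed genes were called in the inhibitor comparison with 10 false calls over 15959 genes, and 160 of 200 in the Tyr19Phe comparison with 7 over 15969. All planted changes were larger than those of the list genes called with the inhibitor, and the simulated libraries were independent. These numbers therefore do not show how smaller changes, or technical repeats, would be called.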

Additional observations from a re-analysis of the deposited data

How the results depend on the processing

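Under no alternative run were DMKN, CREB3L1, CREB3 or CREB3L2 called with the inhibitor, with adjusted p from 0.581 to 1. The sign turned for CREB3L1 without WT replicate 3 (0.044) and inhibitor replicate 2 (0.0074), for CREB3 without WT replicate 2 (6.5e-04) and for CREB3L2 without WT replicate 1 (0.025), and the lowest values with a library left out were -0.20, -0.10 and -0.074. Leaving out each library in turn, the log2 fold changes with Tyr19Phe CDK9 were -6.00 to -4.91 for DMKN and -4.08 to -3.14 for CREB3L1. At least 10 counts in every library removed DMKN and CREB3L1 and gave no value for them. With the replicate number as a block, they were -5.37 and -3.50 with Tyr19Phe CDK9, and the block changed no call of the 4 genes and no list count.

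Genes called lower and higher with the inhibitor (447 and 297) numbered 260 and 167 at an adjusted p of 0.01, 1344 and 1129 at an unadjusted p of 0.05, and 293 to 434 and 198 to 307 with each library left out. With Tyr19Phe CDK9 (1695 and 1245) the unadjusted p gave 2553 and 2186, an adjusted p of 0.01 gave 715 higher, and the libraries left out gave 1293 to 1683 and 887 to 1355.

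Of the lists with Tyr19Phe CDK9, CREB3 relatives called higher fell from 2 to 1 without the filter and at 0.01 (1 to 2 with libraries left out). COPII genes called lower fell from 4 to 2 with upper quartile scaling, library size alone and 0.01 (2 to 4), and those called higher went from 1 to 4, 5, 3 and 3 with upper quartile scaling, library size alone, at least 10 counts and DESeq2, to 0 at 0.01 and to 5 at the unadjusted p (0 to 1). Collagen genes called higher went from 3 to 6 at the unadjusted p (2 to 4), and lower ones were 3 to 4 with libraries left out. Skin barrier genes called lower were 2 to 4 with libraries left out, with 2 without WT replicate 3. With the inhibitor, COPII genes called higher were 0 at 0.01 and 2 at the unadjusted p (0 to 1), collagen genes called higher were 1 and 10 (1 to 4) and lower ones 1 at the unadjusted p, and skin barrier genes called lower were 2 at the unadjusted p and higher ones 0 to 1. The thresholds alone set the changes at 0.01 and at the unadjusted p. For the other changes the cause was not tested. DMKN and CREB3L1 in Tyr19Phe CDK9 cells rest on 2 to 19 counts per library, and the size of their fall is limited by that depth.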
